A study of Mus musculus with 8 samples.

Results

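Aspm encodes a large protein of the poles of the mitotic spindle, and the values here are the eCLIP peaks of ALKBH5 over that gene in mouse embryonic stem cells. Its members are all peaks with at least 1 bp in the interval of the gene on chromosome 1 from 139382000 to 139422500 in GRCm39, a stretch of 40501 bp. They number 38 of 72953 peaks in the 4 peak lists, with 21 and 16 in the full-length lists and 0 and 1 in the del-cIDR lists. The gene was picked because the full-length lists held far more peaks around it than the del-cIDR lists, so the comparison between genotypes is a description and was not tested. With 2 replicates each, a two-sided exact permutation p could not have gone under 0.333.

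ALKBH5 is a demethylase that takes N6-methyladenosine marks off RNA, and its C-terminal part is an intrinsically disordered region (cIDR). The cells were E14TG2a, an embryonic stem cell line, grown with LIF and the inhibitors PD0325901 and CHIR99021 in both genotypes. WT cells with the endogenous full-length protein (labelled FL) were compared with Alkbh5 del-cIDR cells, whose endogenous protein lacks the region. Cells were crosslinked with UV light of 254 nm at 400 mJ/cm2 and nuclei were isolated. Each genotype had 2 replicates, and each replicate an input and an immunoprecipitate, which makes 8 samples. The labels say neither how many clones stand behind the del-cIDR cells nor whether replicates were separate cultures. The 4 lists analysed here belong to the immunoprecipitates. The lists named for a knock-in were taken as del-cIDR, the only genotype besides WT. The lists held 19892 and 16636 peaks in the full-length and 17584 and 18841 peaks in the del-cIDR replicates. Read numbers are unknown, and more reads or more RNA of a gene in one genotype could not be told apart from more binding. The lists hold no expression level, so the labelled cell type was not checked against its markers.

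ASPM is the vertebrate counterpart of the Drosophila protein abnormal spindle. It gathers at the minus ends of microtubules at the spindle poles, works there with the microtubule-severing protein katanin and binds calmodulin through a long series of IQ repeats. It is abundant in dividing progenitors, and loss of the human gene causes primary microcephaly. Much of the IQ repeat series is encoded by a single very long exon in the middle of the gene. RefSeq's table for GRCm38.p6 lists Aspm (gene ID 12316, also called Calmbp1) on the plus strand, between the protein-coding genes Zbtb41 and F13b. On the plus strand low positions lie towards the start of the gene, and the peaks below are given in that order. Exons and introns in GRCm39 and the sequence under the peaks were not analysed here, and the peaks carried no strand.

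Full-length ALKBH5 had peaks along nearly the whole of Aspm in both replicates, and the del-cIDR protein had a single peak. The numbers were 21 and 16 peaks in full-length replicates 1 and 2, and 0 and 1 in del-cIDR replicates 1 and 2. The genotypes did not overlap, with means of 18.5 ± 3.54 and 0.5 ± 0.707 peaks (SD, n = 2 per genotype), which lie 18.0 peaks apart. Among 6561 tiles of the same length across the genome with at least 4 peak summits over the 4 lists, 30.3% also had both full-length counts above both del-cIDR counts, and 28.2% had the reverse. The former share was 17.9% over tiles with at least 1 summit and 42.8% over tiles with at least 8. Because Aspm was chosen on this contrast, nothing is read from its place in that background. Relative to the length of the list, the gene held 10.6 and 9.62 of every 10000 full-length peaks and 0 and 0.531 of every 10000 del-cIDR peaks. The number depends on how the caller divided the signal. With peaks of a list within 5 kb joined, each full-length list held 1 peak across the gene and the del-cIDR lists 0 and 1.

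**Figure D1:**
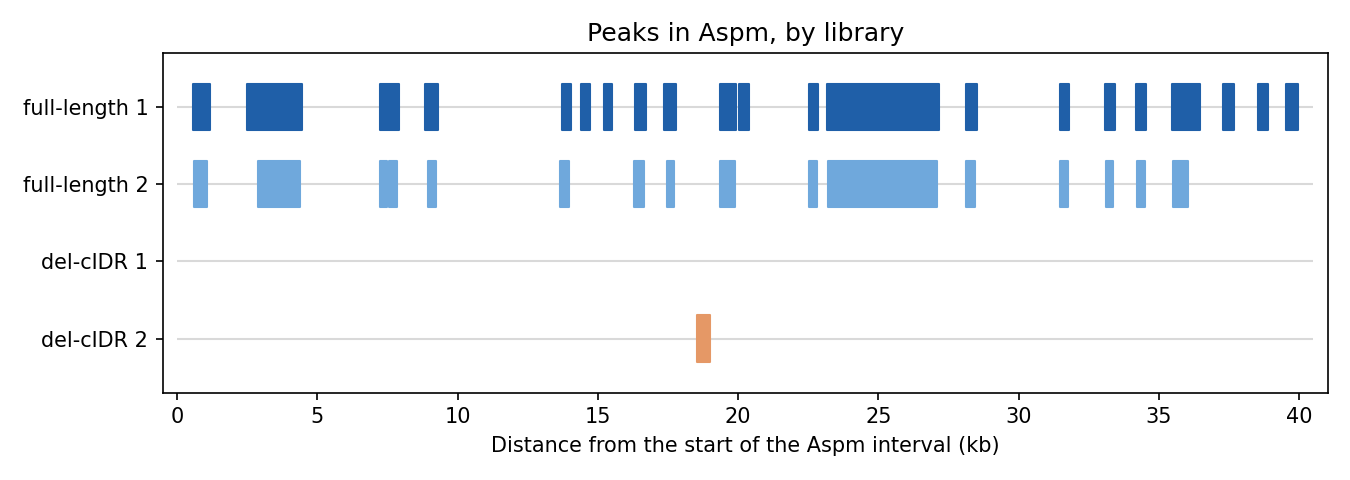
Peaks of the 4 libraries along Aspm, with the distance from the start of the gene interval in kb on the x axis and 1 row per library. Each block is 1 peak at its true width. All 16 peaks of full-length replicate 2 overlap peaks of replicate 1, which has 21, and the 1 del-cIDR peak of replicate 2 lies between them.

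Covered bases in Aspm differed between the genotypes in the same direction as the number of peaks. The share of tiles with such a difference in covered bases was not computed. Peaks covered 14415 and 10071 bp of the gene in the full-length replicates, which is 35.6% and 24.9% of the interval. They covered 0 and 456 bp in the del-cIDR replicates, the latter 1.13% of the interval. The means were 12243 ± 3072 bp and 228 ± 322 bp (SD, n = 2 per genotype). These values leave out the gaps between peaks: with peaks within 5 kb joined, the full-length lists covered 39356 and 35407 bp and the del-cIDR lists 0 and 456 bp. Full-length replicate 1 covered more bases than replicate 2, and its whole list also covered more, 12.3 against 7.63 Mb. The whole del-cIDR lists covered 7.09 and 7.89 Mb. As a share of all covered bases of the list, Aspm took 0.117% and 0.132% in full-length replicates 1 and 2 and 0% and 0.00578% in the del-cIDR replicates, so on this scale full-length replicate 2 was the higher.

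**Figure D2:**
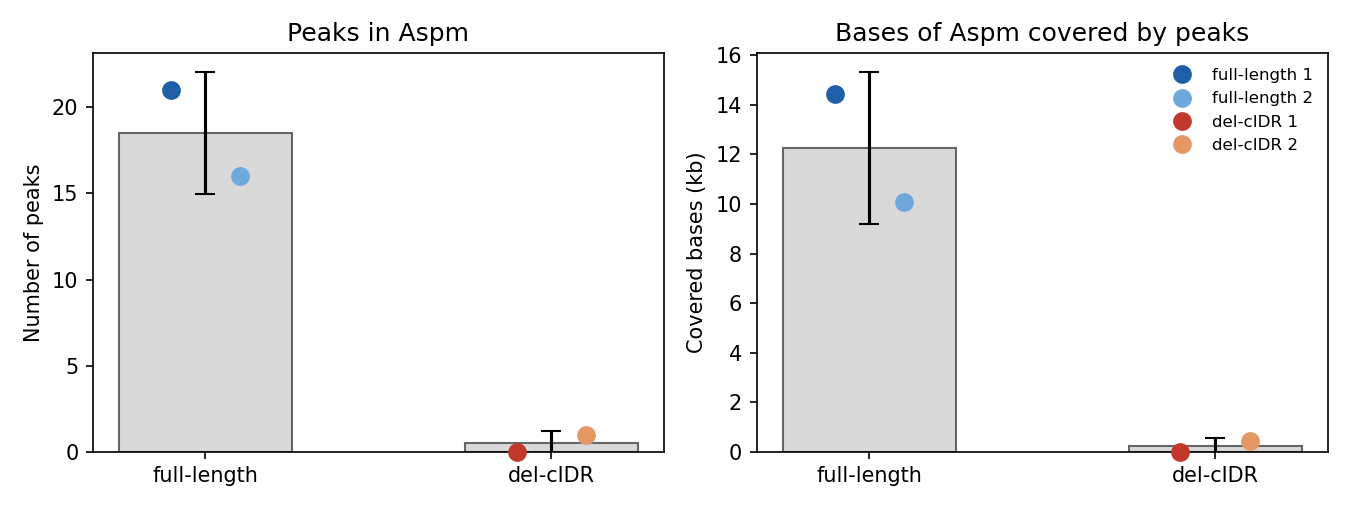
Number of peaks in Aspm (left) and bases of Aspm covered by peaks in kb (right) by genotype. Grey bars are means of 2 replicates, error bars are SD and points are the libraries. The full-length points are at 21 and 16 peaks, and the del-cIDR points at 0 and 1.

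A peak of about 4 kb near the middle of the gene stood out in both full-length lists. In replicate 1 it was 3993 bp wide, from 139405171 to 139409163, and in replicate 2 it was 3912 bp wide, from 139405184 to 139409095. The starts differed by 13 bp, the ends by 68 bp and the summits, at 139407810 and 139407856, by 46 bp. It was the only peak of 2 kb or wider in Aspm, out of 825 and 361 such peaks in the whole full-length lists. The whole del-cIDR lists held only 16 and 26 peaks of that width, so a lack of broad del-cIDR peaks is not particular to Aspm. It was also the highest of the gene by the deposited −log10 q (the strength of the peak call, as the authors' peak caller gave it), at 243 and 165. In the order of the whole list by −log10 q it ranked 580 and 554, within the first 2.92% and 3.33%. Its authors' fold enrichment over the background of the caller was 10.6 and 9.78. This peak alone made up 27.7% and 38.8% of the covered bases of the gene. Neither del-cIDR list had a peak in it. Whether it coincides with the long exon of the IQ repeats was not tested.

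The first 10 kb of the interval held the peaks that came next by −log10 q in both full-length lists. The first peak lay from 139382588 to 139383176 in replicate 1, with a −log10 q of 133, and from 139382617 to 139383058 in replicate 2, with 36.0. The next was the second widest of the gene in both lists, 1952 bp from 139384499 to 139386450 in replicate 1 and 1490 bp from 139384887 to 139386376 in replicate 2. Its −log10 q was 123 and 38.8. These 2 peaks followed the 4 kb peak by −log10 q, in opposite order in the replicates. From 139389241 to 139389920 replicate 1 had a single peak of 680 bp, and replicate 2 had 2 peaks there, 246 and 296 bp wide and 71 bp apart. This was the only full-length peak of the gene that was whole in one list and split in the other. A narrow peak from 139390829 to 139391293 had the highest fold enrichment of the gene in replicate 1, 15.2, with a −log10 q of 86.8. Its partner in replicate 2, from 139390932 to 139391230, had 4.89 and 24.8, and ranked 9 by fold among the 15 matched peaks of its own list. Both lists then had their longest gap, of 4415 and 4436 bp.

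Between that gap and the 4 kb peak, replicate 1 listed 8 narrow peaks and replicate 2 listed 5. The strongest in replicate 1 ran from 139399359 to 139399791, with a −log10 q of 55.5 and 9.04-fold enrichment. At the same place replicate 2 had its weakest peak of the gene, 246 bp from 139399479 to 139399724 with a −log10 q of 7.61, so the replicates ordered this site differently. In replicate 2 the leading peak of this stretch was instead the one from 139401360 to 139401876, 517 bp wide with a −log10 q of 30.7. Its partner in replicate 1, from 139401337 to 139401937, was 601 bp wide with a −log10 q of 34.9. The peak just before the 4 kb peak started at 139404508 in replicate 1 and at 139404541 in replicate 2 and was 341 and 263 bp wide.

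Beyond the 4 kb peak the full-length peaks were mostly narrow. The first, from 139410113 to 139410515 in replicate 1 and from 139410127 to 139410455 in replicate 2, was among the 5 highest of the gene by −log10 q in replicate 2, at 28.7, and reached 53.4 in replicate 1. The peak at 139413470 started at the same base in both lists and was 325 and 271 bp wide. The broadest of this stretch ran from 139417471 to 139418452 in replicate 1, 982 bp, and from 139417503 to 139418023 in replicate 2, 521 bp. Its summits were 361 bp apart, the largest such difference in the gene. After it replicate 2 had no further peak, whereas replicate 1 listed 3 more, from 139419268 to 139419671, from 139420524 to 139420870 and from 139421507 to 139421943. The last of these was the weakest full-length peak of the gene in replicate 1, with a −log10 q of 6.82 and 2.68-fold enrichment.

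**Figure D3:**
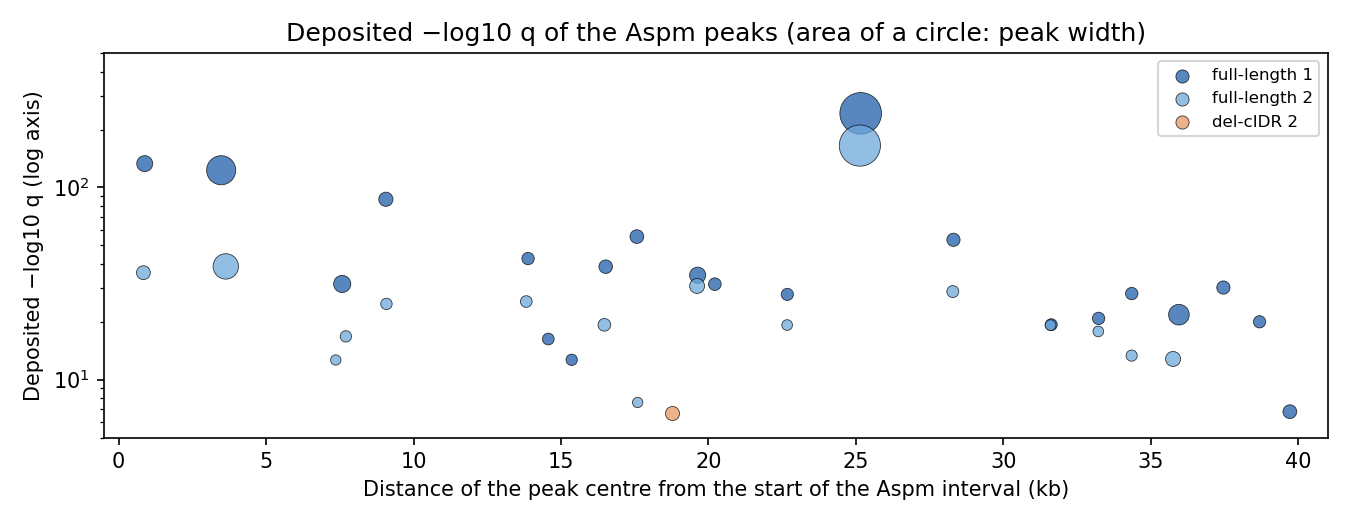
Deposited −log10 q of each Aspm peak (y axis, log scale) against the distance of its centre from the start of the gene interval in kb. The area of a circle is proportional to the width of the peak and colour marks the library. The 4 kb peak is highest in both full-length lists, at 243 and 165, and the del-cIDR peak is at 6.69; values of different lists are on their own scales.

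The full-length replicates shared most of their sites in Aspm. All 16 peaks of replicate 2 overlapped a peak of replicate 1, and 15 of the 21 peaks of replicate 1 overlapped one of replicate 2. Over whole lists 76.2% of replicate 2 peaks and 54.0% of replicate 1 peaks overlapped the other list. Of the 16 overlapping pairs, 13 had the replicate 2 peak wholly inside the replicate 1 peak, and in every pair at least 86.6% of the shorter peak was shared. The median difference was 30.5 bp between starts, 67.5 bp between ends and 40.5 bp between summits. The ends differed more than the starts, and in every pair the replicate 2 peak ended before the replicate 1 peak. The narrowest peak of the whole list was 297 bp in replicate 1 and 243 bp in replicate 2. The part of this in the end differences was not tested. The Jaccard index of covered bases, the shared bases divided by the bases of either list, was 0.691 within Aspm and 0.461 over the whole full-length lists. Both lists covered 10009 bp of the gene together, out of 14477 bp covered by either. The 4 kb peak alone gave 3912 bp of these shared bases, so the index rests in good part on 1 peak. The gene was chosen for its full-length peaks, so the difference between its index and that of the whole lists was not tested.

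The 6 replicate 1 peaks without a partner were narrow, 298 to 437 bp, and mostly weaker by −log10 q. Their −log10 q had a median of 18.1 and a highest value of 31.4, against a median of 38.7 and a lowest value of 19.3 for the 15 peaks with a partner. Fold enrichment overlapped more widely, at 2.68 to 7.57 without a partner and 4.15 to 15.2 with one. Besides the last 3 of the gene, the peaks without a partner lay from 139396412 to 139396729, from 139397216 to 139397513 and from 139402038 to 139402403. The last of these was separated by 100 bp from the peak before it. Replicate 1 also had the longer list and the larger covered length over the genome, and the part of this in the 6 extra peaks was not tested.

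Among the 15 matched peaks, each replicate 1 peak was the wider of the pair. The narrowest peak of the whole list was also wider in replicate 1, 297 against 243 bp, and the part of this in the Aspm widths was not tested. The order of the matched peaks was shared for width and −log10 q but not for fold enrichment. Spearman's rho between the replicates was 0.74 for width, 0.66 for −log10 q and 0.06 for fold enrichment over the 15 peaks, which share a gene and are not independent. The first peak of the gene shows this, as it ranked 3 by fold enrichment in replicate 1 and 14 in replicate 2. The 4 kb peak ranked 2 and 1. Every site of replicate 2 was thus also a site of replicate 1, while the fold enrichment gave no common order of the sites.

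**Figure D4:**
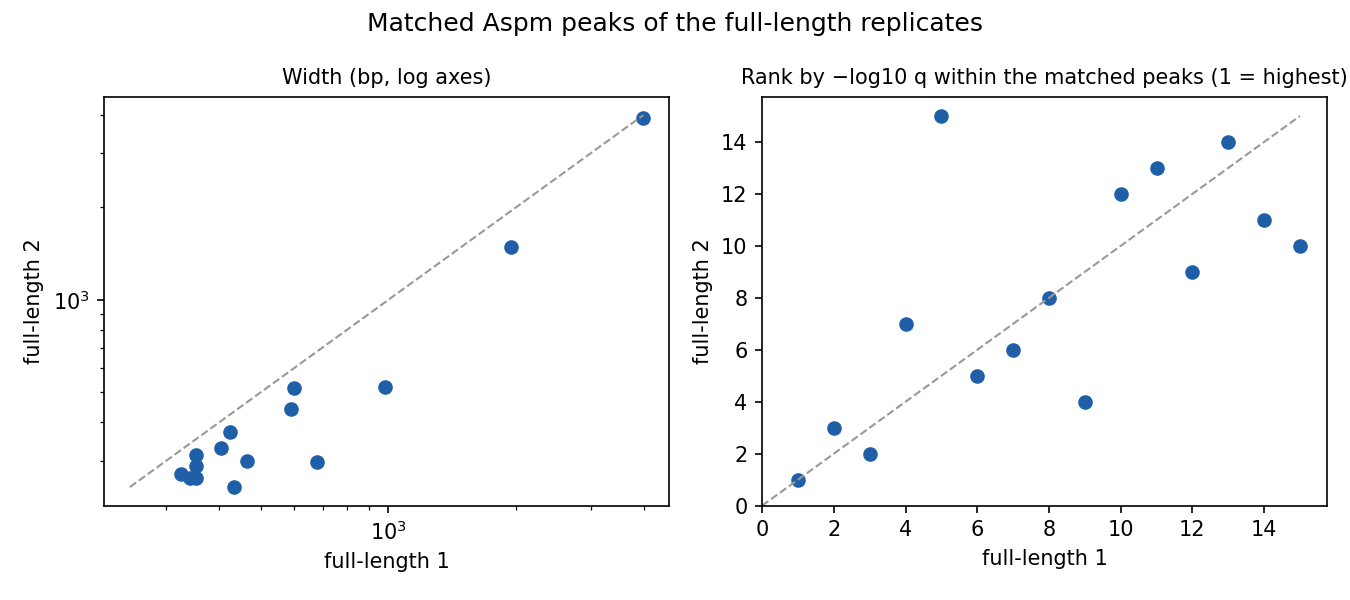
The 15 matched Aspm peaks of the full-length replicates, with replicate 1 on the x axis and replicate 2 on the y axis. The left panel gives the width in bp on log axes and the right panel the rank by −log10 q within the matched peaks, where 1 is the highest; the dashed line marks equal values. All points on the left lie below the line, and the 4 kb peak has rank 1 on both axes.

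Aspm peaks were mostly under 500 bp wide, with median widths slightly above those of their lists. Most exceeded the list medians of −log10 q and fold enrichment. Apart from the 4 kb peak the next widest was under 2 kb, and 15 of 21 and 12 of 16 were under 500 bp. The median width was 404 bp in replicate 1, against 379 bp over the list, and 306.5 bp in replicate 2, against 291 bp. By −log10 q, 20 of 21 and 15 of 16 peaks lay above the median of their list (12.1 and 11.5), and by fold enrichment 19 of 21 and 15 of 16 (medians 3.80 and 3.60). Among the highest 10% of their list by −log10 q were 4 of 21 and 1 of 16. The gene was thus marked by many peaks of middle to upper rank and 1 peak of 2 kb or wider. The median gap between neighbouring peaks was 880.0 bp in replicate 1 and 1354 bp in replicate 2.

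The single del-cIDR peak lay where neither full-length list had a peak. It ran from 139400543 to 139400998 in replicate 2, 456 bp wide, 18.5 kb from the start of the interval. In full-length replicate 1 the nearest peaks ended 751 bp before it and started 338 bp after it, and in full-length replicate 2 the distances were 818 and 361 bp. Its fold enrichment was 2.83 and its −log10 q 6.69, both below the medians of its list, 3.16 and 9.91. It ranked 13007 of 18841 by −log10 q. It was lost when peaks under 4-fold enrichment were left out, leaving 0 del-cIDR peaks in either replicate against 19 and 14 full-length peaks. This limit is not equal across lists. Their median fold enrichment was 3.80 and 3.60 in the full-length and 3.17 and 3.16 in the del-cIDR replicates. Del-cIDR replicate 1 listed no peak in the gene.

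Merging the 4 lists gave 22 regions in Aspm. A peak in both full-length lists and no del-cIDR list was found at 15 of them, and 7 held a peak of a single library, 6 of full-length replicate 1 and 1 of del-cIDR replicate 2. No region held peaks of both genotypes. Over all 43029 merged regions, 17.5% had peaks in both full-length lists and no del-cIDR list, and 52.8% had peaks of a single library. Regions with peaks of both genotypes were a minority over the whole lists too. Peaks of all 4 lists were in 4.70%, and peaks of both genotypes but not all lists in 7.32%. The gene was chosen on this contrast, and the regions are neighbours in 1 gene, so the counts are given as a description.

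The dense run of full-length peaks stopped near the ends of the gene interval. Inside it, the first peak of both full-length replicates started within 1 kb of the lower limit. The last peak ended at 139421943 in replicate 1 and at 139418023 in replicate 2. Just outside, replicate 1 had a peak 6.52 kb before the interval, from 139375019 to 139375479, with 3.76-fold enrichment and a −log10 q of 9.33. Further peaks of replicate 1 lay 29.9 and 30.7 kb before the interval. The nearest peak of replicate 2 on that side was 282.6 kb away. On the other side the nearest full-length peaks were 223.6 kb away in replicate 1 and 119.1 kb in replicate 2. The nearest del-cIDR peaks outside the gene were 352 and 399 kb before it, and in both lists 878 kb after it. Full-length replicate 2 and both del-cIDR lists thus had no peak within 100 kb of the gene on either side.

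In the window of 139 to 140 Mb on chromosome 1, Aspm held 21 of the 39 peaks of full-length replicate 1 and 16 of the 25 of replicate 2. The rest of the window had 18 and 9 full-length peaks and 1 and 0 del-cIDR peaks, or 13.5 ± 6.36 and 0.5 ± 0.707 (SD, n = 2 per genotype). When peaks under 4-fold enrichment were left out, 6 and 5 full-length and 0 and 0 del-cIDR peaks were left there, so the difference fell from 13.0 to 5.50 peaks. Per 100 kb the gene had 51.9 and 39.5 full-length peaks and the rest of the window 1.88 and 0.938. Outside the gene the full-length peaks fell mainly into a pair of groups. From 139050553 to 139054011 there were 4 and 3 peaks, and from 139078901 to 139103855 there were 8 and 3. Their highest −log10 q was 22.3 in replicate 1 and 7.33 in replicate 2, far below the highest of the Aspm peaks in each list. The rest were scattered, and the strongest, from 139975365 to 139975768, had a peak in both full-length lists with a −log10 q of 33.0 and 28.9. The single del-cIDR peak outside Aspm, in replicate 1 from 139029691 to 139029990, was 300.0 bp wide, the minimum of its list. With all deposited peaks kept, 53.8% and 64.0% of the full-length peaks of the window and 59.9% and 77.4% of their covered bases were in the gene.

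The density of full-length peaks in Aspm belongs to the values it was chosen on, so its place among other stretches is a description with nothing read from it. Of the 6561 tiles of the length of the gene, 18 had 21 or more summits in full-length replicate 1 and 41 had 16 or more in replicate 2, while the median tile had 2 and 1. Tiles were laid from the ends of chromosomes and not around genes, so a gene can be cut by a tile border and the ranks favour Aspm. At least 10 summits in both full-length lists were found in 112 tiles. Of these 58 had at most 1 summit in each del-cIDR list and 41 had none, so many other dense full-length tiles also had few or no del-cIDR peaks.

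The tiles most like Aspm were those with the smallest sum of differences in summit number over the 4 libraries. A sum of 5 was reached by 4 tiles. On chromosome 1 from 34263847 to 34304347 there were 16 and 16 full-length and 0 and 1 del-cIDR summits, and on chromosome 7 from 132640776 to 132681276 the same numbers. On chromosome 5 from 25475130 to 25515630 the numbers were 18 and 18 against 0 and 1, and on chromosome 9 from 66340639 to 66381139 they were 20 and 16 against 3 and 2. With a sum of 7, chromosome 4 from 145155585 to 145196085 had 19 and 21 against 0 and 1. The genes of these tiles were not analysed here. In none of the 5 was the widest full-length peak as wide as in Aspm: it measured 960.0 to 2390 bp in replicate 1 and 692 to 2022 bp in replicate 2, against 3993 and 3912 bp. Covered bases in these tiles were 8111 to 13696 bp in replicate 1 and 6093 to 11476 bp in replicate 2.

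**Figure D5:**
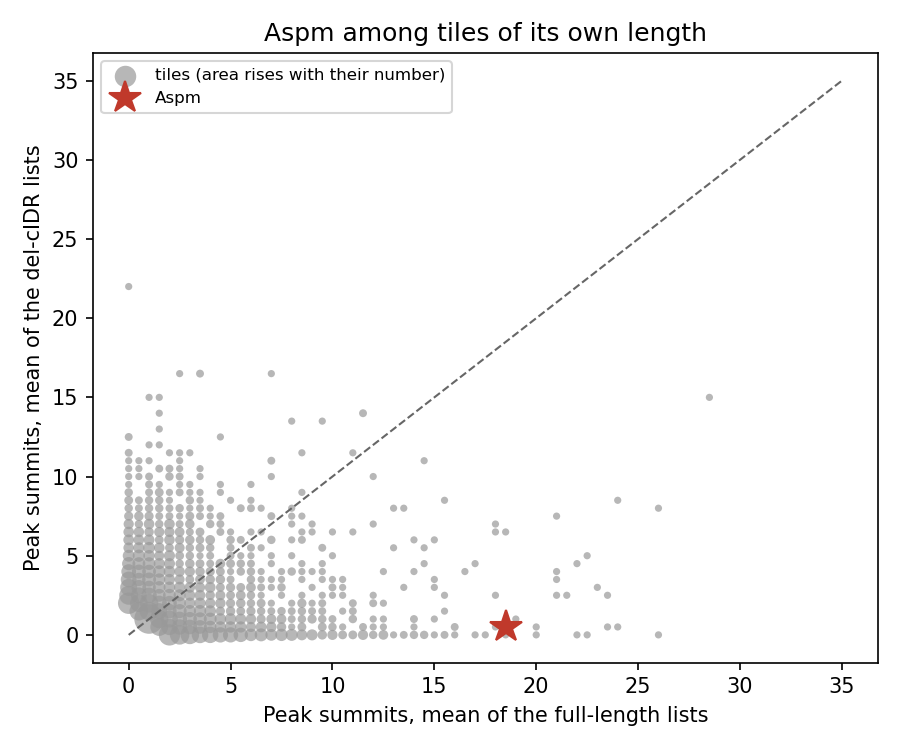
Peak summits per tile of the length of Aspm, as the mean of the full-length lists (x axis) against the mean of the del-cIDR lists (y axis). Grey circles are the 6561 tiles with at least 4 summits, larger where more tiles share a value, and the star is Aspm, at 18.5 and 0.5. The dashed line marks equal numbers.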

How the data were processed

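ALKBH5 eCLIP peak lists of 4 immunoprecipitates, full-length and del-cIDR with 2 replicates each, were analysed; the inputs were not. The tools named in the submitters' processing notes are cutadapt, STAR, UMI-tools and MACS2, and the build is GRCm39; versions, settings and any use of the inputs as control: not given in the sources used here. For each peak the authors deposited a score (not used here), a fold enrichment (a ratio), the −log10 of its p-value (not used here) and of its q-value, and the distance of the summit from the start. Each list belongs to 1 library, so peaks had been called per replicate. Read depth is unknown, and no interval for it is given.

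Aspm and the lists used were chosen with earlier results of these data known. Peaks with 1 bp or more in the interval were counted in Python 3.11.15 (pandas 2.3.3, numpy 2.4.6, scipy 1.17.1). Named peaks were all del-cIDR peaks, full-length peaks of 2 kb or wider, and the 5 widest and 5 best by −log10 q per full-length replicate; other peaks were named after their values were seen. The 5 tiles nearest in summit number were named by position. Tiles of 40501 bp were laid on the numbered, X and Y chromosomes. Planned counts over spindle and pluripotency genes needed positions in GRCm39 and were not run. The functions were tested on simulated lists.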

Additional observations from a re-analysis of the deposited data

How the results depend on the processing

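The difference in the number of Aspm peaks, 18.0, ranged from 15.5 to 20.5 when each replicate was left out. It moved beyond the replicate spread under 1 of the other alternatives, joining peaks within 5 kb, which left a difference of 0.5 peaks. Some alternatives removed no Aspm peak and so could not change the number. These were a −log10 q of at least 5, lists of equal length, the summit inside the gene and 50% of the peak inside it. The difference in covered bases, 12015 bp, ranged from 9843 to 14187 bp with a replicate left out and was 37154 bp with peaks within 5 kb joined. It stayed within the replicate spread under the others, of which the −log10 q limit and the lists of equal length again removed no Aspm peak. For the rest of the window the difference was 13.0 peaks, with a range of 8.50 to 17.5 over replicates left out, and 5.50 when peaks under 4-fold enrichment were left out. The share of tiles with both full-length counts higher, 30.3%, was 17.9% with tiles of at least 1 summit and 42.8% with at least 8. The width of the Aspm peaks, as the mean over the full-length replicates, was 355 bp by medians, 306.5 to 404 bp with a replicate left out, and 658 bp by means. The number of regions with peaks in both full-length lists only was 15 under both alternatives. The labels give both genotypes replicates 1 and 2. With the replicate block, differences within a number were 21 and 15 peaks, with a mean of 18.0. In covered bases they were 14415 and 9615 bp, with a mean of 12015 bp. Both means equal the unpaired differences by arithmetic, since every library enters both, so nothing is read from this. As the gene was chosen on this contrast, the differences were not tested. The block and the joining for covered bases were added after the data were seen. Without read numbers, depth and binding could not be separated.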
